A study of Mus musculus with 6 samples.

Results

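Oxidative phosphorylation in the mitochondrion is carried out by 5 protein complexes, and the genes described here are the nuclear genes whose symbols name a part of one of them. They were taken by symbol from the array annotation: every symbol that starts with Nduf, Uqcr, Atp5, Cox4, Cox5, Cox6, Cox7 or Cox8, together with Sdha, Sdhb, Sdhc, Sdhd and Cyc1. This gave 90 of the 19938 genes measured. By complex there were 36 genes of complex I, 7 complex I assembly factors (the Ndufaf genes), 4 of complex II, 9 of complex III, 17 of complex IV and 17 of complex V. The genes of a complex were compared between 2 groups of mice aged 4 weeks, 3 AR3 transgenic mice and 3 of their wild-type littermates, from RNA of the dissected prostate. AR3 is a splice variant of the androgen receptor that lacks the ligand-binding domain and is active without androgen. Neither the promoter of the transgene nor the mouse strain is given in the sources used here. Each array is labelled with a mouse of its own.

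Electrons from NADH enter the respiratory chain at complex I and electrons from succinate at complex II. Both pass them to ubiquinone, complex III hands them on to cytochrome c, and complex IV gives them to oxygen. Complexes I, III and IV pump protons out of the matrix, and complex V, the ATP synthase, makes ATP as the protons flow back. A few subunits of complexes I, III, IV and V come from mitochondrial DNA, and all the others, with all of complex II, are nuclear genes. In the prostate this chain has long been discussed beside citrate, because the secretory epithelium exports citrate in place of oxidising it. Most subunit genes are held to be driven in common by the transcription factors NRF1, the ETS factor GABP, YY1 and the oestrogen-related receptors, with the coactivator Ppargc1a.

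None of the 90 genes differed between the genotypes past the threshold, an adjusted p of 0.05 in limma, a linear model fitted to each probe set and adjusted by Benjamini-Hochberg over all 28944 probe sets. The same fit called 425 probe sets, 1.47% of those tested, and 324 genes, 1.63% of all genes. An unadjusted p under 0.05 was found for 8 of the 90 genes, or 8.89%, against 12.2% of all genes. The smallest adjusted p among them was 0.13. In 17 of the 90 genes all transgenic values lay above all wild-type values, and in 4 all lay below. Of all genes, 10.5% and 8.61% did so. All changes below are transgenic minus wild-type on the scale of log2(intensity + 16), where intensity is the deposited linear array signal. The median change of the 90 was 0.01, beside 0.01 for all genes, with 50 of them positive and 40 negative. The positive count was 42 after quantile normalization and 39 after median centring, so the sign of the majority depended on the scaling. The counts of genes with no overlap, here and below, were taken on the deposited scale only.

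**Figure D1:**
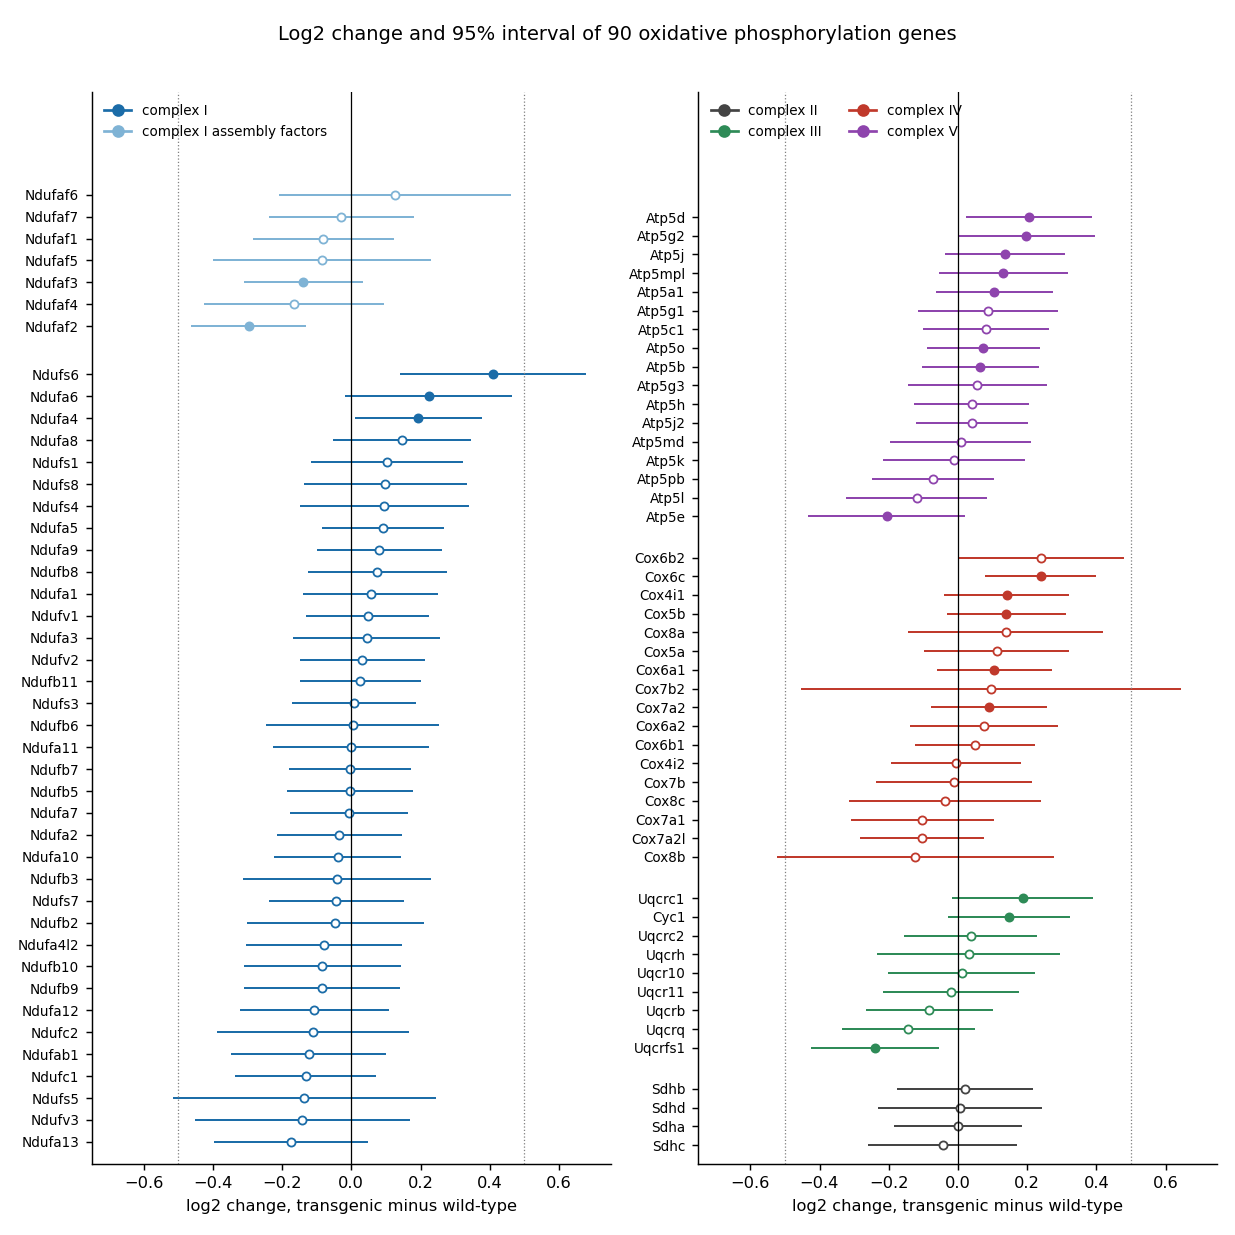
Log2 change (transgenic minus wild-type, 3 mice each) of all 90 genes on the horizontal axis, with bars for the 95% interval from limma, ordered within each complex; filled points mark genes whose 3 transgenic values all lie above or all below the 3 wild-type values, and dotted lines mark a change of 0.5. Nearly all intervals lie between the dotted lines, and the points of complexes IV and V sit mostly right of 0 while 6 of the 7 assembly factors sit left of it.

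The 6 arrays differed little in the signal of these genes. Their median intensity was 637, 675 and 683 in the wild-type mice and 684, 671 and 680.3 in the transgenic mice. The median over all tested probe sets was 94.5, 104 and 111 in wild-type and 106, 107 and 105 in transgenic prostates, so wild-type mouse 1 was the lowest array on both measures. As a scale for background, the 95th percentile of 1035 olfactory receptor probe sets was taken on each array, and it lay between 66.9 and 91.9. Above that scale on all 6 arrays were 84 of the 90 genes. The tissue label was checked on 9 markers of prostate luminal epithelium, whose mean log2 value was 11.36, 11.32 and 11.28 in wild-type and 11.35, 11.34 and 11.35 in transgenic mice. All 9 were above background. In RNA from whole tissue, fewer cells of a type and less RNA per cell cannot be told apart.

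Promoter sequence from RefSeq (GRCm38.p6), 250 bases before to 50 after the start of a gene, was at hand for 73 of the 90 genes. The core of the NRF1 motif, GCGCATG on either strand, was found in the promoters of 15 of the 73 (20.5%) and of 5.73% of 15490 other measured genes. CCGGAAG, an ETS core of the kind bound by GABP, was found in 18 (24.7%, against 13.6%). AAGATGG, a YY1 core, was found in 10 (13.7%, against 7.22%), and AAGGTCA, the core read by oestrogen-related receptors, in 7 (9.59%, against 4.45%). One or both of the NRF1 and ETS cores stood in 27 of the 73 promoters (37.0%, against 18.1%). None of the 4 motifs contains another, though they share runs of a few letters, and a match is a description of the letters only. The NRF1 core is shown in 5 promoters, 1 each from complex I, the assembly factors and complexes II, IV and V, because it is the motif whose share differed most from that of other genes. Each line gives the 120 bases that end just before the start site, 5′ to 3′ on the gene's own strand, with the core in capitals. In Ndufa11, Ndufaf4 and Atp5g2 the capitals hold the core on both strands, overlapping, and in Sdhb the core is on the opposite strand.
Ndufa11 (chr17:56717642-56717761, plus strand): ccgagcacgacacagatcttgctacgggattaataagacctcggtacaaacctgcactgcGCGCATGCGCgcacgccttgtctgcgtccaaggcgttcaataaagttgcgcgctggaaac
Ndufaf4 (chr4:24897963-24898082, plus strand): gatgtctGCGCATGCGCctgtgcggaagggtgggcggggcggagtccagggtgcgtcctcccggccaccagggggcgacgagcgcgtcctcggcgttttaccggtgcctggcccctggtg
Sdhb (chr4:140961151-140961270, plus strand): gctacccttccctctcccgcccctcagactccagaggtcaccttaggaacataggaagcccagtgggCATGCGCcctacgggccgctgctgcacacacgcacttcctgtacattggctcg
Cox5b (chr1:36691367-36691486, plus strand): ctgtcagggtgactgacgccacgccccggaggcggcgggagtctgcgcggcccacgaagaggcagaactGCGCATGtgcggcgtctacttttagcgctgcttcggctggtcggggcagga
Atp5g2 (chr15:102671048-102671167, minus strand): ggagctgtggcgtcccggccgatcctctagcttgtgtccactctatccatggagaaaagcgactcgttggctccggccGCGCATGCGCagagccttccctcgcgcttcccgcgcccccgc

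The changes of these 5 genes lay on both sides of 0. Ndufa11, a membrane-arm subunit of complex I chosen here for its sequence and not by its values, had a change of -0.00087 ± 0.10 (SE). The other, dimmer probe set of Ndufa11 had -0.15. The assembly factor Ndufaf4 had -0.16 ± 0.11 and Sdhb, the iron-sulfur subunit of complex II, 0.02 ± 0.08. Cox5b of complex IV had 0.14 ± 0.07 and Atp5g2, which encodes the c subunit of the ATP synthase rotor, 0.20 ± 0.08. All 5 were short of the threshold in limma. None of the factors that read these motifs was called in limma. Nrf1 had a change of 0.02 ± 0.11, with an interval from -0.23 to 0.27, Gabpa 0.01 ± 0.07 and Esrra 0.09 ± 0.09. Yy1, named here for its motif, had 0.06 (adjusted p 0.77 in limma). Ppargc1a had 0.05 ± 0.08, but its intensity of 68.2 to 78.4 lay within the range of the background scale (66.9 to 91.9). Its level was therefore not well measured. Tfam, which packages mitochondrial DNA and starts its transcription, had -0.16 ± 0.09. The smallest limma adjusted p among 30 such regulators was 0.41, for Sirt1, with a change of 0.16 ± 0.07. Next came Gabpb1 with 0.13 ± 0.07 (adjusted p 0.52 in limma). In both, all transgenic values were higher. Of the 30, 2 lay apart with higher and 2 with lower transgenic values.

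Complex I takes electrons from NADH through a peripheral arm in the matrix and pumps protons through an arm in the membrane. Of its 36 genes, 17 had a positive and 19 a negative change, with a median of -0.0027. The mean log2 value over the 36 was 9.12, 9.18 and 9.20 in the wild-type mice and 9.19, 9.16 and 9.18 in the transgenic mice, so the genotypes overlapped. The core subunits, which carry the flavin and the iron-sulfur clusters and are shared with bacteria, were represented by Ndufv1, Ndufv2, Ndufs1, Ndufs3, Ndufs7 and Ndufs8. Their changes ran from -0.04 to 0.10 with a median of 0.04, and in all 6 the genotypes overlapped. The 30 accessory subunits ran from -0.17 to 0.41, with 12 positive. In 3 of the 36 genes all transgenic values lay above all wild-type values, where 10.5% of all genes did so, and in 0 they lay below, where 8.61% of all genes did so.

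Those 3 genes were Ndufs6, Ndufa6 and Ndufa4. Ndufs6, a zinc-binding accessory subunit needed late in complex I assembly, had the largest positive change of the 90. Its intensity was 435, 499 and 412 in wild-type and 554, 691 and 563 in transgenic prostates, a mean of 449 ± 44.9 against 603 ± 76.4 (SD, n = 3 each). All 3 transgenic mice were above all wild-type mice, and the change of 0.41 ± 0.11 had a limma adjusted p of 0.19. Ndufa4, named for complex I but since assigned to complex IV, gave 2310.5, 2186 and 2075 in wild-type and 2616, 2469.7 and 2435 in transgenic mice. Its change was 0.19 ± 0.08 (adjusted p 0.37 in limma). Ndufa6, an accessory subunit of the LYR family, gave 1368, 1352 and 1174 against 1421, 1696 and 1443. In Ndufa6 the lowest transgenic mouse stood just above the highest wild-type mouse, and the change was 0.22 ± 0.10.

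The negative side of complex I was smaller. Ndufa13, also known as GRIM-19 and required for assembly of the complex, was at 481, 535 and 558 in wild-type and 485, 419 and 486 in transgenic mice. Its change was -0.17 ± 0.09. Ndufv3, a small accessory subunit of the NADH arm, was at 618, 724 and 877 against 622, 724 and 644, with a change of -0.14 ± 0.13 that became -0.01 without wild-type mouse 3, the highest. In both genes the genotypes overlapped, and the limma adjusted p was 0.52 for Ndufa13 and 0.72 for Ndufv3. Ndufa4l2, a paralogue of Ndufa4 induced by hypoxia in other tissues, lay at 59.2 to 75.3 over the 6 arrays and was on 0 arrays above background.

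Complex I assembly factors help to build the complex and are not part of the finished enzyme. Of the 7, 6 had a negative change, with a median of -0.08 against 0.01 for all genes. Their mean log2 value was 7.55, 7.61 and 7.70 in wild-type and 7.54, 7.49 and 7.55 in transgenic mice, so the transgenic mice were lower, the nearest pair of mice by less than 0.01.

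Ndufaf2, a chaperone that holds the place of the subunit Ndufa12 during assembly, had the smallest p of the 90 genes. It was at 144, 147 and 151 in wild-type and 121, 117 and 113 in transgenic prostates. The means were 147 ± 3.07 and 117 ± 3.92 (SD, n = 3 each), and the groups lay apart by several times that spread. The change was -0.30 ± 0.07, with a 95% interval from -0.46 to -0.13, an unadjusted p of 0.0033 and a limma adjusted p of 0.13. It passed the threshold only when limma gave each array a weight (adjusted p 0.035), over a range of 0.035 to 0.46 across the alternatives. The weights were 0.37, 2.77 and 0.49 for the wild-type and 1.09, 1.27 and 1.45 for the transgenic mice. The wild-type mean in that fit therefore rested mostly on wild-type mouse 2. Ndufaf3, named here after its values were seen, was the other assembly factor with no overlap, at 283, 259 and 267 against 249, 243 and 238. Ndufaf4 was at 268, 243 and 307 against 269, 223 and 231, and its genotypes overlapped. Ndufaf6 had the only positive change, 0.13 ± 0.14, and Ndufaf7 had -0.03 ± 0.09.

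Complex II, which is also the succinate dehydrogenase of the tricarboxylic acid cycle, was close to level between genotypes. Sdha, the flavoprotein, was at 1655, 1519 and 1498 in wild-type and 1494, 1557 and 1621 in transgenic prostates. Its change was 0.00073 ± 0.08, with an interval from -0.18 to 0.18. Sdhb was at 609, 533 and 553 against 541, 586 and 593, a change of 0.02 ± 0.08. Of the membrane anchors, Sdhc had -0.04 ± 0.09 and Sdhd 0.01 ± 0.10. The genotypes overlapped in all 4 genes, and all 4 intervals lay within -0.26 and 0.24. The 3 positive signs were not kept when arrays were scaled otherwise: 0 of 4 were positive after quantile normalization or median centring.

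In complex III the genes split. Uqcrfs1, the Rieske iron-sulfur protein that moves electrons from ubiquinol to cytochrome c1, was at 569.7, 605 and 566 in wild-type and 495, 458 and 515 in transgenic prostates. All 3 transgenic mice were lower, with a mean of 489 ± 29.2 against 580.1 ± 21.3, and the change was -0.24 ± 0.08 (adjusted p 0.28 in limma). Cyc1, which encodes cytochrome c1 itself, was at 717, 689 and 689 against 795, 733 and 799.5. Its change was in the other direction, 0.15 ± 0.07, and again the genotypes did not overlap. Uqcrc1, a core protein on the matrix side, was at 962, 839.7 and 809.7 in wild-type and 986, 1003 and 984 in transgenic mice, a change of 0.19 ± 0.09.

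The other 6 genes of complex III overlapped between genotypes. Uqcrq and Uqcrb, small subunits near the ubiquinone sites, had -0.14 ± 0.08 and -0.08 ± 0.08, and Uqcrh, the hinge protein for cytochrome c1, had 0.03 ± 0.11. Over the 9 genes the median was 0.01 and 5 were positive, which became 3 after quantile normalization and 2 after median centring. Without wild-type mouse 1 the median was -0.07.

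**Figure D2:**
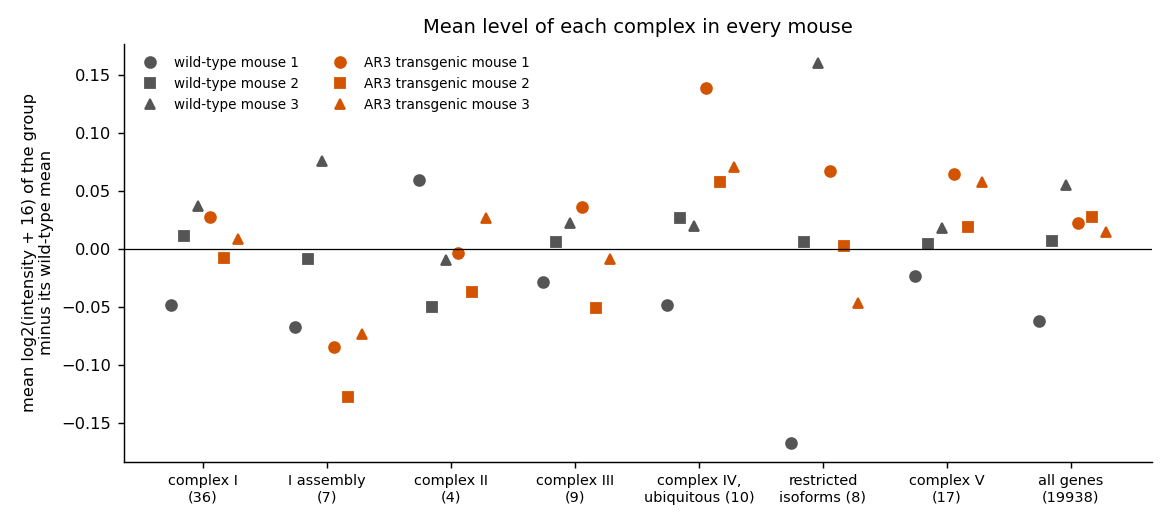
Mean log2(intensity + 16) over the genes of each complex in each mouse, as the difference from the mean of the 3 wild-type mice on the vertical axis; each symbol is 1 mouse, grey for wild-type and orange for transgenic, and the number of genes stands below each name. On the deposited scale the 3 transgenic symbols lie above the 3 wild-type symbols for the ubiquitous form of complex IV and, barely, for complex V. They lie below for the assembly factors, and in the other groups the genotypes overlap. The ubiquitous form was grouped after the values were seen. In the mean over all 17 genes of complex IV, which is not plotted, the genotypes overlap.

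Complex IV, cytochrome c oxidase, holds several subunits with 2 or more isoforms, of which 1 is found in most tissues and another in heart and skeletal muscle, lung, testis or brown fat. The 10 genes of the common form were all above background, and 8 of them had a positive change, with a median of 0.11. Their mean log2 value was 10.17, 10.24 and 10.24 in wild-type and 10.36, 10.27 and 10.29 in transgenic mice. On the deposited scale all 3 transgenic mice therefore stood above all wild-type mice. The mean over all genes on that scale was 7.26, 7.33 and 7.38 against 7.35, 7.35 and 7.34, lowest in wild-type mouse 1. Whether the mice stay apart after other scalings was not examined. In 5 of the 10 genes the genotypes did not overlap, all with the transgenic values higher. Of all genes, 10.5% lay apart with higher and 8.61% with lower transgenic values.

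Cox6c, a membrane subunit with no isoform, was the clearest of them. It was at 1535, 1568 and 1545 in wild-type and 1826, 1824 and 1845 in transgenic prostates, with means of 1549 ± 17.1 and 1832 ± 12 (SD, n = 3 each). The 2 groups lay far apart for their spread, but the change was small, 0.24 ± 0.07. The standard error draws on the spread of all probe sets as well as its own, and the limma adjusted p was 0.20. With a variance that follows the intensity it was 0.015, and over all alternatives it ran from 0.015 to 0.56.

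Cox4i1, the subunit on which ATP acts to slow the enzyme, was at 1702, 1769.6 and 1826 in wild-type and 1985, 2020.1 and 1842 in transgenic mice. Its change was 0.14 ± 0.08, and the lowest transgenic mouse stood only just above the highest wild-type mouse. Cox5b, which binds zinc on the matrix side, was at 2168, 2047 and 2030.5 against 2268, 2244 and 2374. Cox6a1 had 0.11 ± 0.07 and Cox7a2 0.09 ± 0.07, both with no overlap. Cox8a was at 556, 757 and 686 in wild-type and 776, 725 and 689 in transgenic mice. Its change was 0.14 ± 0.12 with overlap, and 0.02 without wild-type mouse 1, the lowest of the 6. Cox6b1 had 0.05 ± 0.07 and Cox7b -0.01 ± 0.10, while the other, dimmer probe set of Cox7b had -0.20 (adjusted p 0.39 in limma). Cox7a2l, which joins complex III to complex IV in a supercomplex, was on the negative side with -0.10 ± 0.08, and its other probe set had -0.16. For the probe sets used, the limma adjusted p lay between 0.50 and 0.98 for Cox4i1, Cox5b, Cox6a1, Cox6b1, Cox7a2, Cox7a2l, Cox7b and Cox8a.

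The isoforms of restricted tissues were dim in the prostate of either genotype. Cox4i2, the lung isoform, and Cox7b2 were above background on 0 arrays, Cox8b, a form of muscle and brown fat, on 1 and Cox8c on 2. Over these and Cox6a2, Cox6b2, Cox7a1 and Ndufa4l2 the median change was -0.02, and in all 8 the genotypes overlapped. Cox6b2, the testis isoform, was the 1 with an unadjusted p under 0.05. It was at 104, 109 and 129 in wild-type and 125, 149 and 138 in transgenic mice, a change of 0.24 ± 0.10 with a limma adjusted p of 0.40. Of 11 other testis and sperm genes 2 had a positive change, none was called in limma or had an unadjusted p under 0.05, and their mean log2 value was 6.0, 6.19 and 6.19 in wild-type and 6.02, 6.05 and 6.10 in transgenic mice. The muscle forms Cox6a2 and Cox7a1 had 0.08 ± 0.09 and -0.10 ± 0.09. A list of 27 skeletal muscle genes had means of 6.80, 6.97 and 7.03 against 6.92, 6.96 and 6.93.

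Over all 17 genes of complex IV, restricted isoforms included, the median was 0.09 and 11 were positive. It was between 0.06 and 0.11 when any mouse but wild-type mouse 1 was left out. Without wild-type mouse 1 it fell to 0.02, with 10 positive. The count of 11 was the same after quantile normalization and after median centring, with medians of 0.07 and 0.05. The mean log2 value over the 17 was 8.58, 8.69 and 8.76 in wild-type and 8.79, 8.72 and 8.71 in transgenic mice. Over all 17 the genotypes therefore overlapped.

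Complex V makes the ATP in 2 joined rotary parts, F1 in the matrix and Fo in the membrane. Of its 17 genes 13 had a positive change, with a median of 0.06. The mean log2 value was 10.40, 10.43 and 10.44 in wild-type and 10.49, 10.45 and 10.48 in transgenic mice. On the deposited scale the genotypes were separated only by a margin in the third decimal (10.445 against 10.446). Whether they stay apart after other scalings was not examined. In 7 genes all transgenic values were above all wild-type values and in 1 they were below, against 10.5% and 8.61% of all genes. After quantile normalization or median centring 12 were positive, with medians of 0.04 and 0.03.

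Of the 5 subunits of the catalytic F1 part, 4 had a positive change. Atp5a1, the alpha subunit, was at 3888, 3936 and 3719 in wild-type and 4029, 4145 and 4249.7 in transgenic prostates, a change of 0.11 ± 0.07. Atp5b, the beta subunit that holds the catalytic site, was at 3988, 3800.0 and 3899 against 4007, 3996 and 4224, a change of 0.06 ± 0.07. In both genes the genotypes did not overlap, though the lowest transgenic value of Atp5b was close to the highest wild-type value.

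The subunits of the central stalk foot went opposite ways. Atp5d, the delta subunit, was at 1423, 1322 and 1272 in wild-type and 1495, 1557 and 1582 in transgenic mice, and its change was 0.20 ± 0.08 (adjusted p 0.35 in limma). Atp5e, the epsilon subunit that binds it, was at 596, 601 and 708 against 588, 517 and 537. All 3 transgenic mice were lower, and the change was -0.21 ± 0.10 (adjusted p 0.45 in limma).

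The c ring, the rotor turned by protons, is made from 3 genes that encode the same mature protein. Atp5g2 was at 1128, 1095 and 984 in wild-type and 1169.5, 1272 and 1239 in transgenic mice, with a change of 0.20 ± 0.08 (adjusted p 0.40 in limma). Atp5g1 and Atp5g3, named to complete the ring, had 0.09 ± 0.09 and 0.06 ± 0.09 with overlap. The 4 peripheral stalk genes had a median of 0.06 and the 5 membrane accessory genes 0.01, with Atp5l, a subunit at the dimer interface, at -0.12 ± 0.09.

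**Figure D3:**
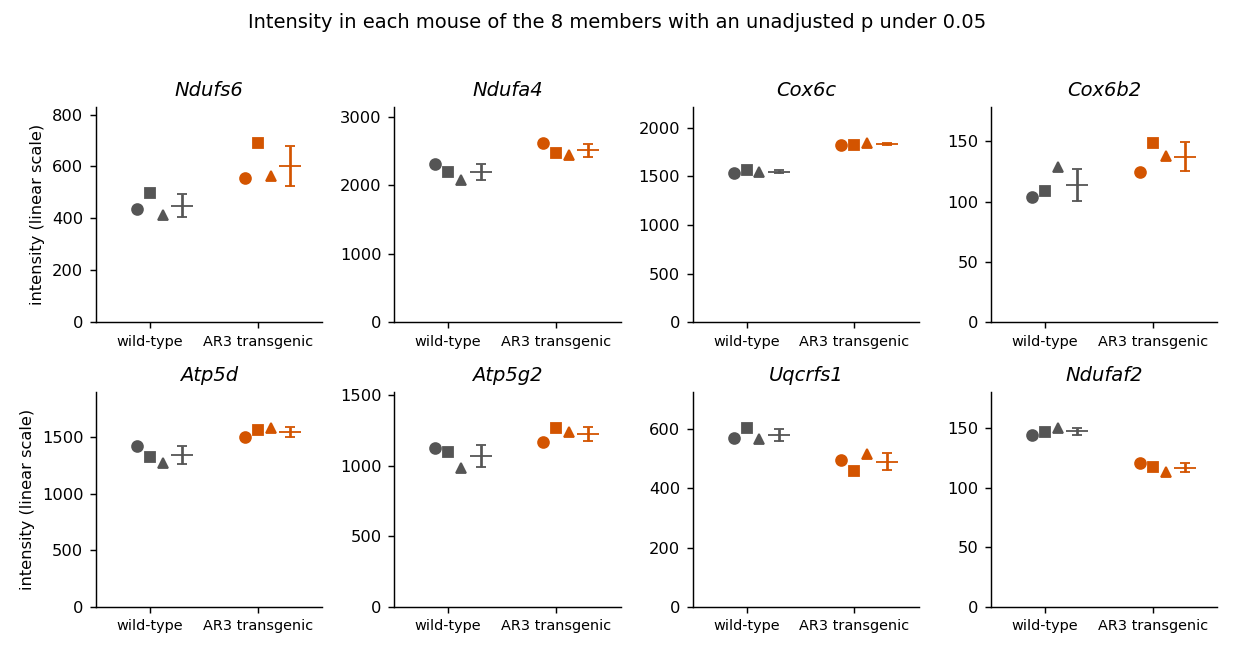
Intensity on a linear axis from 0 of the 8 genes with an unadjusted p under 0.05, 1 panel per gene, with the 3 wild-type (grey) and 3 transgenic (orange) mice as symbols and the group mean ± SD beside them. In Ndufaf2 and Uqcrfs1 the transgenic symbols lie below the wild-type symbols, in Ndufs6, Cox6c, Atp5d, Ndufa4 and Atp5g2 they lie above, and in Cox6b2 the genotypes overlap.

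The width of the intervals says how large a change could have gone unseen. The 95% interval of each gene's change lay inside a 2-fold change in either direction for all 90, and inside a 1.41-fold change (0.5 on the log2 scale) for 86. The 4 that reached further were Ndufs6, Ndufs5, Cox7b2 and Cox8b, of which Ndufs5 is named here for its interval. For 43 of the 90 the interval reached past a change of 0.3. In bright genes these bounds are close to a 2-fold, 1.41-fold and 1.23-fold change of intensity, and in dim genes they allow a larger one. The 4 genes above background on 0 arrays are counted too, and near background a narrow interval does not bound a change of their RNA. A change of at least 0.2 in size was measured in 8 of the 90 (8.89%), against 18.5% of all genes. Among genes above background it was 9.30% of the members and 17.8% of the others. A change of at least 0.5 was measured in 0 of the 90 and in 474 genes, or 2.38%, of the whole table.

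Many of the positive changes were in genes with bright probe sets. At a mean intensity of at least 1000, a limit chosen after the values were seen, stood 29 of the 90 genes, and 22 of them had a positive change, with a median of 0.05. In 11 the transgenic values were all higher and in 0 all lower, while among 1110 other genes as bright they were all higher in 209 and all lower in 188. The mean log2 value of the 29 was 10.70, 10.70 and 10.70 in wild-type and 10.78, 10.75 and 10.76 in transgenic mice. Of the 1110, 56.2% had a positive change, the median was 0.02, and the mean was 10.78, 10.76 and 10.75 against 10.79, 10.78 and 10.80. Whether the 29 differ from the 1110 was not tested, and the separation of the mice was not examined after other scalings.

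Neighbouring mitochondrial functions, in 7 lists, gave no called gene. Fatty acid oxidation, a mitochondrial list with 1 called gene, is not among the 7 and is given below. Of the subunits encoded by mitochondrial DNA, COX2 and ND3 were on the array. COX2, a catalytic subunit of complex IV, was at 9405, 9309.6 and 9654 in wild-type and 9354, 8870.2 and 8784 in transgenic prostates, a change of -0.07 ± 0.07, while ND3 of complex I had -0.08 ± 0.08. These 2 genes, 18 genes of cytochrome c and coenzyme Q, 40 other assembly factors, 25 of the tricarboxylic acid cycle, 77 of the mitochondrial ribosome, 30 regulators and 19 of inner membrane carriers and scaffolds held 211 genes. None was called in limma, and the smallest adjusted p was 0.17, for Mrpl18 of the mitochondrial ribosome. An unadjusted p under 0.05 was found for 14 of the 211, against 12.2% of all genes. List medians lay between -0.07 and 0.01.

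**Figure D4:**
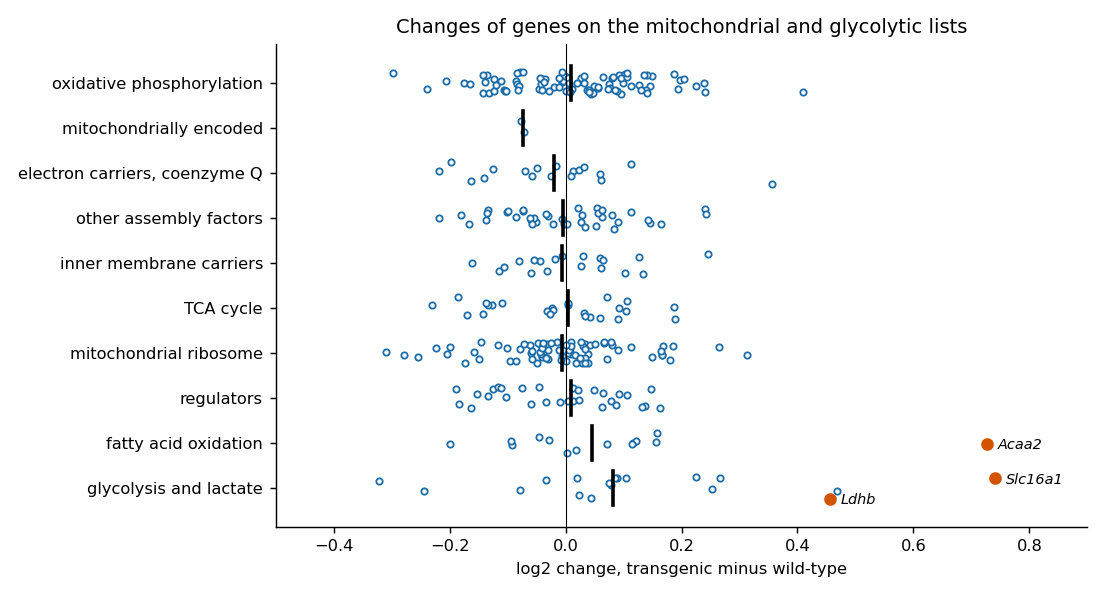
Log2 change (transgenic minus wild-type, 3 mice each) on the horizontal axis for each gene of 10 metabolic lists, with vertical ticks at list medians; open points are genes short of the threshold and filled orange points are genes called by limma. The 90 oxidative phosphorylation genes lie between -0.30 and 0.41 with none called, and the called genes are Acaa2, Slc16a1 and Ldhb.

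Of the 14 fatty acid oxidation genes 1 was called, and of the 18 glycolysis and lactate genes 2, where 1.63% of all genes were called. These lists, like the others, were chosen with earlier results of these data known, so the presence of called genes on them is a description only. Acaa2, the thiolase that ends each round of mitochondrial fatty acid oxidation, was at 927, 969 and 1041 in wild-type and 1628, 1576 and 1685 in transgenic prostates. It rose by 0.73 ± 0.08 with a limma adjusted p of 0.0034, and was the 1 called among 14 fatty acid oxidation genes, whose median was 0.05. Slc16a1, the lactate and pyruvate carrier MCT1, was at 76.0, 74.0 and 72.0 against 142, 129.7 and 132. It rose by 0.74 ± 0.07 (adjusted p 0.0020 in limma).

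Ldhb, the lactate dehydrogenase subunit common in tissues that burn lactate, was at 177, 174 and 162 against 239, 233 and 249. It rose by 0.46 ± 0.07 (adjusted p 0.029 in limma), a call lost in 8 of 14 alternatives, where the adjusted p lay between 0.059 and 0.18. The glycolysis and lactate list had 18 genes, 14 of them positive, with a median of 0.08. Of all genes 53.9% were positive. Acaa2 and Slc16a1 were called in every alternative run, leaving out each mouse included.

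Markers of other cell types in the dissected tissue differed in level between the mice. For comparison with the counts below, 12.2% of all genes had an unadjusted p under 0.05 in limma, and 1.63% were called. All 10 fibroblast genes had a positive change, with a median of 0.50, 0 called in limma and 5 at an unadjusted p under 0.05. Their summed intensity was 4436 to 6256 in wild-type and 5818 to 8441 in transgenic mice. All 11 myeloid genes were positive with a median of 0.28, 0 called in limma and 4 at an unadjusted p under 0.05, and sums of 923 to 1076 and 1175 to 1325.5. Of the 27 skeletal muscle genes 10 were positive and 1, Myot, was called, with a change of 1.90 ± 0.08. The 9 smooth muscle genes had a median of 0.05 and the 12 adipocyte genes 0.06, with 0 called in either; at an unadjusted p under 0.05 stood 0 and 1 of them. The 8 seminal vesicle genes varied most, with sums of 726 to 4834 in wild-type and 1626 to 8974 in transgenic mice. Svs3a, a seminal vesicle secretory protein, was at 341, 477 and 609.8 in wild-type and 136, 203 and 155 in transgenic mice and was the 1 called among them. It fell by 1.43 ± 0.22 on the log2 scale (adjusted p 0.019 in limma), a call lost without wild-type mouse 2, transgenic mouse 1 or transgenic mouse 3 (adjusted p 0.10, 0.082 and 0.11). Of the 8 seminal vesicle genes, 3 had a positive and 5 a negative change. Pate4 was at 942, 25.25 and 36.7 in wild-type and 1782, 1203 and 3026.5 in transgenic mice. Its change was 3.88 ± 1.09 with no overlap (adjusted p 0.20 in limma). The part of these cell types in the small changes of the 90 genes was not tested.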

How the data were processed

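Total RNA from the 6 dissected prostates was labelled with biotin for whole-transcript Affymetrix arrays, per the labels' protocols. The deposited table held 1 intensity per probe set and array on a linear scale; how the authors normalized it is not given in the sources used here, and it was used as deposited. Of 35512 probe sets, 6568 below the gene-level identifier range of this platform were taken for controls, and 28944 were tested. Symbols came from the platform annotation, and 21789 tested probe sets had 1 symbol. For each gene the probe set with the highest mean log2 value stood, and 17 of the 90 genes had several, which had opposite signs in 1. Of the probe sets with several symbols, 6 that hold a symbol of the rule were left out.

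Values were tested as log2(intensity + 16), which understates changes of dim genes, in a two-sided comparison of genotypes with no covariate, by lmFit followed by eBayes (limma 3.58.1, R 4.3.3), on all 6 arrays. Benjamini-Hochberg adjustment ran over the 28944 probe sets, with a threshold of 0.05. The intervals are 95% limma intervals of the change. With 3 against 3 mice an exact permutation test cannot give a p below 0.1, so none was used. The number of arrays limits the precision. No scan date was at hand, so no batch was tested.

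The members and the 17 other gene lists were chosen with earlier results of these data known. Genes were named by this rule: every called gene, in each complex the 2 largest changes in each direction and the 2 brightest, the isoform pairs, the complex II genes, the 3 smallest p, and from other lists the called genes, up to 2 with the smallest p and 5 regulators. Grouping by role within a complex was done after the values were seen. Genes outside the rule are named as such. Motifs of 7 letters were searched on both strands of promoters of 300 bases. Samples were not paired by mouse number in the main fit. Alternatives were other added constants, 2 other scalings between arrays (quantiles or medians made equal), a filter that drops the dimmest 40%, robust variances that follow intensity, weights per array, a block by mouse number, each array left out, the mean of all probe sets of a gene, and the list without assembly factors and restricted isoforms.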

Additional observations from a re-analysis of the deposited data

How the results depend on the processing

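The call of 0 of the 90 genes held with other added constants, quantile normalization, median centring, the dim filter, the replicate block and each array left out. With an intensity trend and robust variances 1 of the 90 was called (Cox6c) among 678 probe sets, and with array weights 1 (Ndufaf2) among 1202, beside 425 in the fit reported; the cause was not tested. The median of all 90 genes was -0.0285 after median centring, where complexes I, III and V had -0.0409, -0.0273 and 0.0267. Quantile normalization gave complex V 0.0404, and array weights gave complex II 0.0554. With each array left out in turn, the probe sets called ran from 234 to 519, and the medians from -0.0216 to 0.0595 for complex II, from -0.0703 to 0.0251 for complex III, from 0.0165 to 0.107 for complex IV and from 0.0393 to 0.0788 for complex V. Of these, the lowest values of complexes III, IV and V and the highest of complex II came without wild-type mouse 1, and 234 came without transgenic mouse 3. Fewer samples are tested in each. Among the 81 genes named by the rule, 14 changed sign under some alternative, and each of these was under 1 SE from 0 and called in neither setting. Acaa2 and Slc16a1 were called under all alternatives, and Ldhb lost its call under 8 of them.

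With the number of each mouse as replicate block, 250 probe sets and 0 of the 90 genes were called. The deviations of same-numbered mice from their group means correlated at -0.044, 0.046 and -0.162. Those of unlike-numbered mice ran from -0.135 to 0.184, so no pairing by number was seen. With 3 mice per group the check cannot exclude a shared litter or batch.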

Other observations

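The log2 values of each gene and the mean of the 90 were centred within genotype and correlated over the 6 arrays. Among 13812 other genes above background, Htr4, Ldlrad1, Paxbp1, Fam71f2 and Hs3st6 followed that mean most closely. Their Pearson correlations were 0.996 to 0.998. The points are 6 arrays, of which wild-type mouse 1 has the lowest deviation. With so few points and 13812 genes searched, some very high correlations would be found in any case.

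Among the mitochondrial lists with no called gene, 2 genes of coenzyme Q had the smallest p of the electron carriers, both with all 3 transgenic values lower. Coq9, needed to make coenzyme Q, was at 727, 744 and 853 in wild-type and 648, 676 and 662 in transgenic prostates, a log2 change of -0.22 ± 0.09. Coq10b, a coenzyme Q binding protein, was at 194, 216 and 207 against 181, 174 and 176, a change of -0.20 ± 0.07. Their adjusted p in limma was 0.36 and 0.35. Phb2, a scaffold protein of the inner membrane, had 0.25 ± 0.10, and the nucleotide carrier Slc25a5, which exchanges ADP for ATP, had 0.13 ± 0.07. Their adjusted p in limma was 0.37 and 0.50.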
